A study of Mus musculus with 18 samples.

Results

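Acetylation of lysine 27 on histone H3 (H3K27ac) was mapped by chromatin immunoprecipitation and sequencing (ChIP-seq) in mouse embryonic fibroblasts (MEFs), and its widest domains were compared between cells with and without KAP1. A broad shared domain was a WT peak on an autosome with a width of at least 10000 bp that shared at least 1 bp with a peak of the Kap1 KO cells. There were 250 such domains among the 36275 peaks of the WT list, or 0.706% of its 35402 autosomal peaks. The members were thus chosen by their WT width and by overlap with a KO peak, so their large WT width is no finding, and all 250 autosomal WT peaks of this width had a KO peak. The WT cells were MEFs of embryonic stage and C57BL/6 background (C57BL/6J in the methods) carrying Kap1 loxP/loxP alleles, and the KO cells were MEFs of the same background with Kap1 deleted. For expression work, the methods name a single long-cultured KO clone, and whether the ChIP-seq used it is not given in the sources used here. One H3K27ac library was deposited per genotype, so 1 was compared with 1, no test between genotypes was possible, and every difference below is a difference between 2 peak lists. Peaks of H3K9me3 in the same MEFs, and of KAP1 and SETDB1 in Hepa 1.6 hepatoma cells, served for comparison.

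H3K27ac is deposited by the acetyltransferases p300 and CBP and marks active promoters and enhancers. Most of its peaks are narrow, and long unbroken domains are known for lying over genes and regulatory clusters that are highly active in a cell type. KAP1, encoded by Trim28, is a corepressor that zinc finger proteins bring to DNA and that recruits SETDB1, the methyltransferase for H3K9me3. Fibroblasts are mesenchymal cells that build the extracellular matrix and contractile actin bundles.

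The labelled cell type was compared with marker genes. Of 78 autosomal mesenchymal and matrix genes, 69 had a WT H3K27ac peak over a protein-coding transcript start. Those without were Foxf2, Meox1, Meox2, Tcf21, Eln, Fap, Lum, Postn and Tnc. Such a peak was found for 11318 of all 21275 autosomal protein-coding genes and for all 20 housekeeping genes. The same held for 1 of 15 hepatocyte, 1 of 15 blood, 1 of 16 epithelial, 3 of 13 neuronal, 3 of 12 endothelial and 0 of 12 pluripotency genes, and, among mesenchymal lineages, for 4 of 12 cartilage and bone, 3 of 11 adipocyte and 1 of 12 skeletal muscle genes. In KO cells, 23 of 29 mesenchymal transcription factor genes and 42 of 49 matrix and fibroblast marker genes had a peak, against 25 and 44 in WT. The start of Trim28 lay under a peak of 4078 bp in WT and 4119 bp in KO, which does not check the deletion. The lists give no read depth. Scores of 3100 or more, where the values of the peak caller bunch together, were held by 28.1% of the WT and 21.9% of the KO peaks.

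The widest domains held several microRNA genes, whose sequences are given first because the loci are otherwise hard to name. The mm9 annotation placed 13 microRNA genes in 11 domains, and all 13 lay under a KO peak too. RefSeq (GRCm38.p6) gave mature sequences for 9 of them, and arms of those in 5 domains follow with the seed, bases 2 to 8, in capitals. These genes were picked after the values had been seen. miR-29a-3p and miR-29b-3p, which act on collagen transcripts, share the seed AGCACCA. The seeds of the others differ from it and from each other.
mmu-miR-29a-3p: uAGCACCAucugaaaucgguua
mmu-miR-29b-3p: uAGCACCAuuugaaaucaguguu
mmu-miR-21a-5p: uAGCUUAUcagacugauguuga
mmu-miR-10a-5p: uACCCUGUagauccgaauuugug
mmu-miR-615-3p: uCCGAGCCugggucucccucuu
mmu-miR-199a-5p: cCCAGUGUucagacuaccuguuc
mmu-miR-199a-3p: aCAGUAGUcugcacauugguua
mmu-miR-214-3p: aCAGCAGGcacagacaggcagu

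Among the 10 widest domains, the ratio of KO to WT width ran from 0.876 to 1.00. The widest ran over Hoxb2 to Hoxb9, homeobox genes of the anterior-posterior body plan, and Mir10a, on chromosome 11 from 96129104 to 96217558. It measured 88455 bp in WT and 88648 bp in KO, as an unbroken peak in both. The second, over Hoxc4 to Hoxc6 and Mir615 on chromosome 15 from 102828234 to 102873183, measured 44950 bp in WT and 43479 bp in KO. The third lay inside Vmp1, a gene of autophagy, around Mir21 on chromosome 11 from 86388429 to 86424826, with 36398 bp in WT and 35758 bp in KO. All 3 thus kept nearly their whole width in the KO list.

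The fourth domain lay between genes on chromosome 6 from 31009545 to 31043341, over Mir29a and Mir29b-1 and 100555 bp from the closest protein-coding start, that of Klf14. Its width was 33797 bp in WT and 32538 bp in KO. The fifth and the ninth lay side by side on chromosome 19 and covered the long non-coding RNA genes Neat1, the scaffold of nuclear paraspeckles, and Malat1, a nuclear speckle RNA. The Neat1 domain, which reached into Frmd8, measured 32062 bp in WT and was met by 7 KO peaks that added up to 28093 bp. The Malat1 domain was unbroken in both lists, at 28117 bp and 27298 bp. Myh9, which encodes the heavy chain of non-muscle myosin, followed Neat1 in width, with 31261 bp in WT and 30867 bp in KO.

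The others of the 10 were 2610203C20Rik with 29700 bp in WT and 27492 bp in KO, Smad7, an inhibitor of TGF-beta signalling, with 28162 bp and 27757 bp, and the pair Cirbp and Midn with 24448 bp and 23764 bp. Of these, 2610203C20Rik was met by 3 KO peaks and Smad7 by 2. The domain of Mir199a-2 and Mir214 inside Dnm3 was narrower, at 12723 bp in WT and 12965 bp in KO.

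Over all 250 domains the WT width ran from 10001 to 88455 bp with a median of 12213 bp. The summed width of the KO peaks that touched a domain, used here as its KO width, ran from 953 to 88648 bp with a median of 11681 bp. The domains covered 3.55 Mb, or 4.22% of all bases under autosomal WT peaks, and 89.7% of these bases lay under KO peaks. In the 27021 narrower shared peaks 87.8% did. Members just above the threshold were Tenc1 at 10014 bp and Ier5 at 10039 bp, with KO widths of 9919 and 10069 bp. The shared peaks just under it measured 9982 bp near Enpp5, 9959 bp at Asap1 and 9923 bp near Mtap, with KO widths of 4359, 7950 and 6390 bp.

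The median ratio of KO to WT width was 0.95, with quartiles of 0.861 and 1.00, and 184 domains were narrower and 66 wider in KO. Because the members were picked for their width in WT, the selection was also made the other way round. The 199 KO peaks of at least 10000 bp that shared a base with a WT peak had a median WT to KO ratio of 0.982, with 114 narrower and 85 wider in WT. The narrower shared WT peaks had a median KO to WT ratio of 0.968. Each list was thus the wider one where it had been used to pick the peaks, and a difference between genotypes cannot be told apart from that choice.

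**Figure D1:**
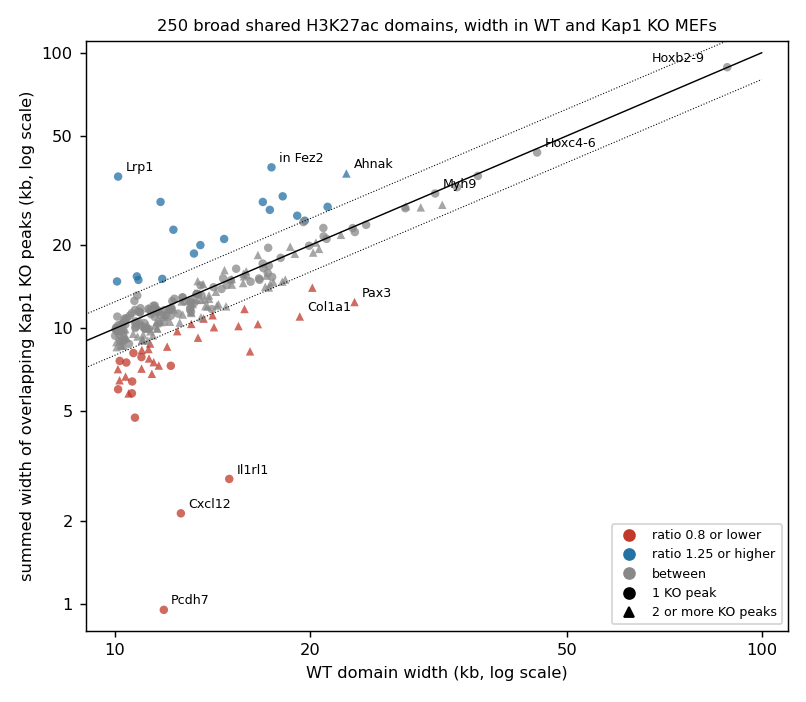
Width of each of the 250 domains in WT (x axis, kb, log scale) against the summed width of the Kap1 KO peaks that touch it (y axis, kb, log scale); the solid line marks equal width and the dotted lines the limits of the shrinking and growing calls. Triangles are domains met by 2 or more KO peaks. Most points follow the line, with Pcdh7 (953 bp in KO), Cxcl12 (2134 bp) and Il1rl1 (2844 bp) far below it and Lrp1 (35556 bp) far above.

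A domain was called shrinking where the KO width was at most 0.8 of the WT width, and growing where the WT width was at most 0.8 of the KO width. By this, 38 of 250 shrank (15.2%, exact 95% Clopper-Pearson interval 11.0% to 20.3%), against a background of 19.1% of all 27271 shared autosomal WT peaks. There were 18 that grew (7.2%, 4.32% to 11.1%), against 16.6%. Since WT width chose the members, nothing is read from these differences from the background. Intervals here and below cover counting error only. The remaining 194 stayed between the limits, and 84 lay within 5% of their WT width. Shares of shrinking domains were 17.9% at 10 to 12 kb, 13.4% at 12 to 15 kb, 14.0% at 15 to 20 kb and 8.70% above 20 kb, with 117, 67, 43 and 23 domains. The median ratio in these classes was 0.934, 0.949, 0.975 and 0.978. WT width set both the classes and the ratio, so no trend is read from them.

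**Figure D2:**
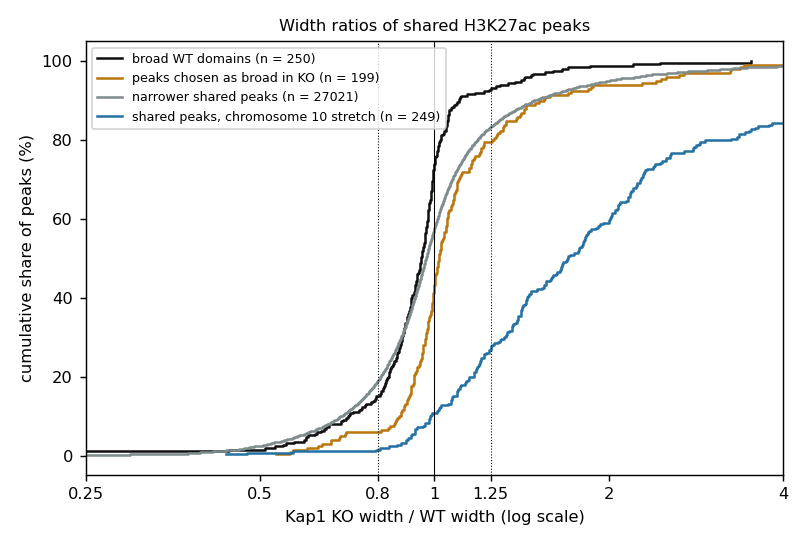
Cumulative share of peaks (y axis, %) by the ratio of Kap1 KO to WT width (x axis, log scale, cut at both ends, so that a few ratios lie outside) for the 250 broad WT domains, 199 peaks chosen for their width in KO, 27021 narrower shared peaks (drawn as quantiles) and 249 shared peaks on chromosome 10 from 115 to 128 Mb. The broad WT domains rise steeply just below 1 (median 0.95), whereas the chromosome 10 stretch lies to the right (median 1.70).

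The domains with the 4 lowest ratios lay over Pcdh7, Cxcl12, Il1rl1 and Clcf1. Pcdh7, a protocadherin, lay on chromosome 5 from 58105003 to 58116897 with 11895 bp in WT and was met by 953 bp in KO, a ratio of 0.0801. That KO peak had a score of 77.3, under the cutoff of 80 that the study states, and no start of Pcdh7 lay under it, so that this domain is not shared under that cutoff. Cxcl12, a chemokine made by stromal cells, fell from 12640 to 2134 bp, a ratio of 0.169, and the KO peak that was left covered its transcript start. Il1rl1, the receptor of interleukin 33, had 15015 bp in WT and 2844 bp in KO, a ratio of 0.189, with no start under a KO peak. Clcf1, a cytokine of the interleukin 6 family, had 10733 bp and 4746 bp, a ratio of 0.442.

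The next 4 ratios were those of a domain inside Bcl2l1 on chromosome 2 from 152605876 to 152622044 with 16169 bp in WT and 8257 bp in KO (0.511), of Pax3 (0.532), and of domains inside Macf1 (0.548) and Dlgap2 (0.554). Pax3, a transcription factor of neural crest and muscle precursors, had 23458 bp in WT on chromosome 1 from 78177911 to 78201368. In KO it was met by 5 peaks of 1402 to 4471 bp that summed to 12469 bp. The largest gap between them, 6955 bp, held its transcript start, so that the start lay under a peak in WT and not in KO. Bcl2l1 encodes an inhibitor of apoptosis and Macf1 a linker of actin and microtubules.

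Most transcript starts in domains lay under a KO peak, a share close to that of all genes. Of 209 genes with a protein-coding start in a domain, 201 had such a start under a KO peak as well (96.2%, 92.6% to 98.3%). Of all 11318 autosomal genes with a start under a WT peak, 95.2% (94.8% to 95.6%) had. The 8 that had none were Ahnak2, Aqp1, Cald1, Gm17329, Hist1h1a, Il1rl1, Pax3 and Pcdh7, named after their values were seen. For Cald1, which encodes caldesmon, another start outside the domain had a KO peak of 6003 bp.

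The 115 split domains, those met by 2 or more KO peaks, made up 46.0% (39.7% to 52.4%) of the members, against a background of 2.50%. Wide intervals can meet more peaks by their width alone, so nothing is read from this difference. There were 72 domains with 2 KO peaks, 32 with 3, 8 with 4, 2 with 5 and 1 with 7. The 174 gaps between neighbouring KO peaks had a median of 458 bp, with 91 under 500 bp and 52 of at least 1000 bp. The same happened in reverse: of the 199 domains picked in KO, 68 were met by 2 or more WT peaks (34.2%, 27.6% to 41.2%). Splitting went together with shrinking in 26 domains, and 89 domains were split without being called shrinking. Of the 422 KO peaks that touched members, 268 had a score of 3100 or more, against 249 of the 250 members in WT. How far the lower scores bear on the splitting was not tested.

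The domains met by the most KO peaks were those of Neat1 with 7, of Pax3 with 5 and a domain 11628 bp from Epha2 on chromosome 4 with 5, followed by 8 domains with 4. The Epha2 domain had 17570 bp in WT and 14727 bp in KO. By WT width, the first of the 8 were 4831426I19Rik with 20186 bp in WT and 14058 bp in KO, and Col1a1.

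**Figure D3:**
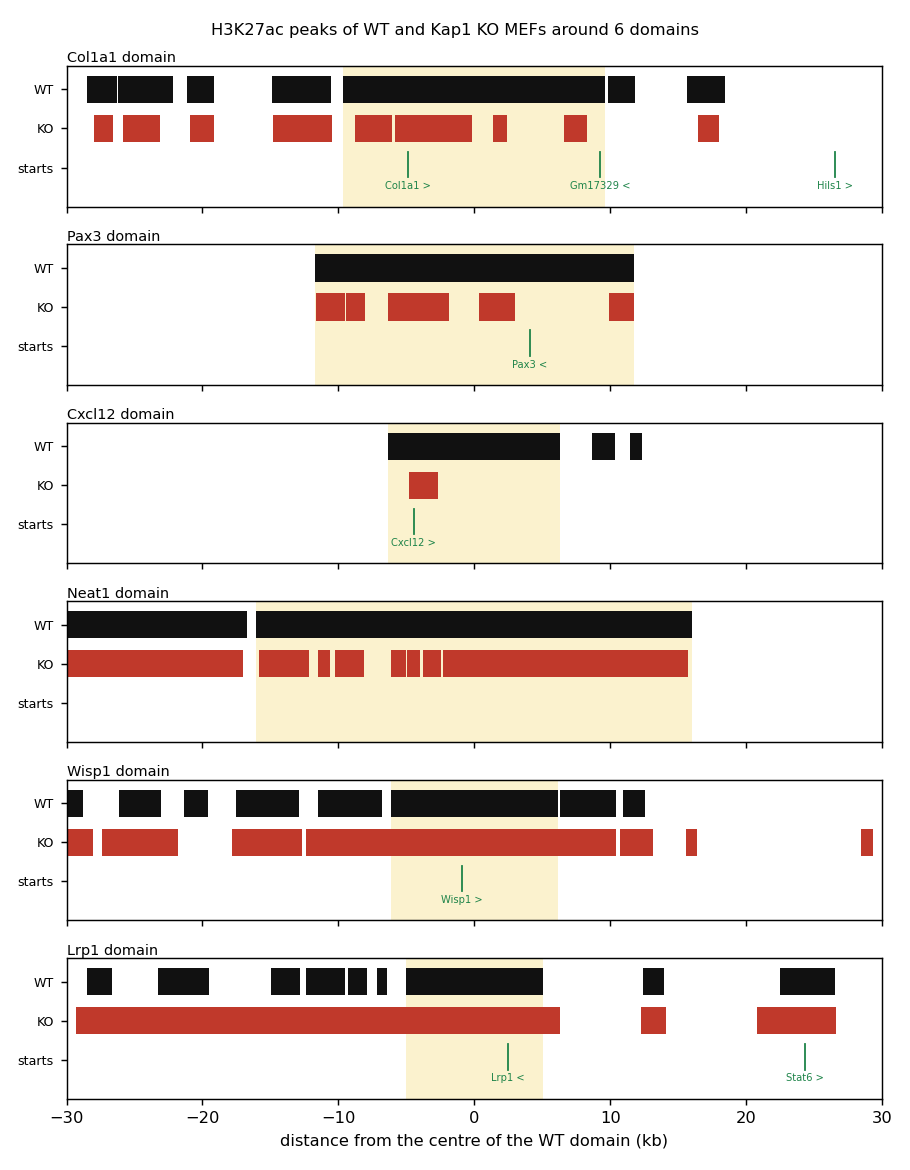
H3K27ac peaks of WT (black) and Kap1 KO (red) MEFs around 6 domains, with distance from the centre of the WT domain in kb on the x axis and the main protein-coding transcript starts in green (arrows give the strand). The shaded WT domains of Col1a1, Pax3 and Neat1 are met by 4, 5 and 7 KO peaks, that of Cxcl12 by a peak of 2134 bp over its start, and those of Wisp1 and Lrp1 are part of wider KO peaks.

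Growing domains were mostly those joined to neighbouring WT peaks by a KO peak. Of the 18 growing domains, 16 shared a KO peak with at least 1 other WT peak, all but Ctdsp2 and Gm10748/Zfhx4. Lrp1, an endocytic receptor, had the highest ratio: 10108 bp in WT and 35556 bp in KO, a ratio of 3.52, in a KO peak that held 7 WT peaks. Other high ratios were those of the domain of 5730596B20Rik and Hoxa3 at 2.45, a domain inside Fez2 at 2.2, Wisp1, a matrix-associated growth regulator, at 1.85, a domain 126538 bp from 4921513I03Rik at 1.66 and Ahnak at 1.60. Wisp1 had 12307 bp in WT and lay in a KO peak of 22804 bp with 3 WT peaks. In Fez2, 17454 bp in WT became part of a KO peak of 38411 bp with 4 WT peaks.

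To take joining into account, all WT and KO peaks linked by overlap were summed as 1 locus, a measure chosen after the data had been seen. This gave 248 loci with a median ratio of 0.943, 38 of which shrank and 5 of which grew. The Wisp1 locus went from 21213 bp in WT to 22804 bp in KO, and that of Actn4, which encodes an actin crosslinker, from 20093 to 20060 bp. The growing loci were those of Lrp1 (1.54), Ctdsp2 (1.41), Nab2/Tmem194 (1.32), a domain near Slc16a11 (1.32) and Gm10748/Zfhx4 (1.30).

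Of these 5 loci, 3 lay on the distal part of chromosome 10, and widths there stood apart along the whole stretch. From 115000001 to 128000000 on chromosome 10, a stretch set after the values had been seen, 249 shared peaks had a median KO to WT ratio of 1.70, against 0.884 over the 1315 on the rest of the chromosome and 0.966 over the rest of the autosomes. Of 358 windows of 5 Mb with at least 30 shared peaks, the 3 highest medians were those over this region, at 1.66, 1.63 and 1.41, and the next was 1.20 on chromosome 15. All 8 domains in the stretch were wider in KO, Frs2, Lrig3, Ctdsp2, Lrp1, Nab2/Tmem194, Hmga2, a domain inside Hmga2 and the one near 4921513I03Rik, with ratios from 1.06 to 3.52. Of the 10 domains on the rest of chromosome 10, 1 was wider. Hmga2, a chromatin protein of growing cells, had 19553 bp in WT and 24316 bp in KO. That KO peak held 3 WT peaks, and the ratio of the Hmga2 locus was 1.07. Taken as loci, the 8 domains of the stretch had ratios from 1.06 to 1.54.

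The stretch had 8 peaks of at least 10000 bp in WT and 20 in KO, and 1162 of all 4319 H3K9me3 peaks of KO cells, against 218 of 14425 in WT. Wide H3K27ac peaks and H3K9me3 peaks were thus both more numerous there in KO. The number of DNA copies there was not tested. Without the stretch 13 of 242 domains grew (5.37%) and the median ratio was 0.943.

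In the other direction, 178 genes had a start in a KO peak of at least 10000 bp, and 126 of them also had one in a domain. There were 67 KO peaks of at least 10000 bp that met WT peaks under 10000 bp alone, and 48 of them held more than 1 WT peak. The widest covered Mdm2, which encodes the main inhibitor of p53, on chromosome 10 from 117128097 to 117161640. It had 33544 bp in KO over 4 WT peaks of at most 9270 bp, which summed to 21645 bp. Of the 67, 12 lay in the chromosome 10 stretch. The 67 also included Sparc, a matrix glycoprotein, with 16784 bp in KO over 3 WT peaks of at most 7111 bp, which summed to 12603 bp. Csf1 had 14735 bp in KO over 4 WT peaks of at most 8707 bp, which summed to 14465 bp, nearly the KO width. These 3 were named after their values were seen.

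The place of the domains was compared with the gene annotation. A protein-coding transcript start lay in 159 of the 250 (63.6%, 57.3% to 69.6%), a further 53 lay inside gene bodies and 38 between genes. Of the narrower shared peaks, 36.6% (36.0% to 37.1%) held a start. Per 10 kb the order was the other way round, with 0.602 genes starting in the domains and 1.59 in the narrower peaks. The 209 genes were 0.982% of 21275 autosomal protein-coding genes, and 1.85% of the 11318 with a WT peak at a start. Exons of protein-coding genes took 10.3% of the bases, introns 54.8% and the space between genes 34.9%. The median ratio was 0.964 for domains with a start, 0.897 inside gene bodies and 0.951 between genes.

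Domains mostly ran downstream from the start. In the 115 domains with 1 such gene and its main start inside, the median reach was 2549 bp upstream and 9557 bp downstream, and 98 of 115 reached further downstream (85.2%, 77.4% to 91.1%). This share was 84.3% (83.5% to 85.1%) of 7783 narrower peaks, with a median reach of 1033 and 1653 bp. The longer arm thus mostly ran in the direction of transcription in both classes. Whether it ended inside the gene or beyond its end was not counted. In KO, 109 of the 115 starts lay under a peak, and at 7500 bp downstream 79 of 115 were covered, against 97 in WT. The choice of wide WT peaks favours WT in this count. Among 94 such domains picked for their width in KO, the order was the reverse, with 75 covered in KO and 66 in WT at this distance, and 92 starts under a WT peak.

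**Figure D4:**
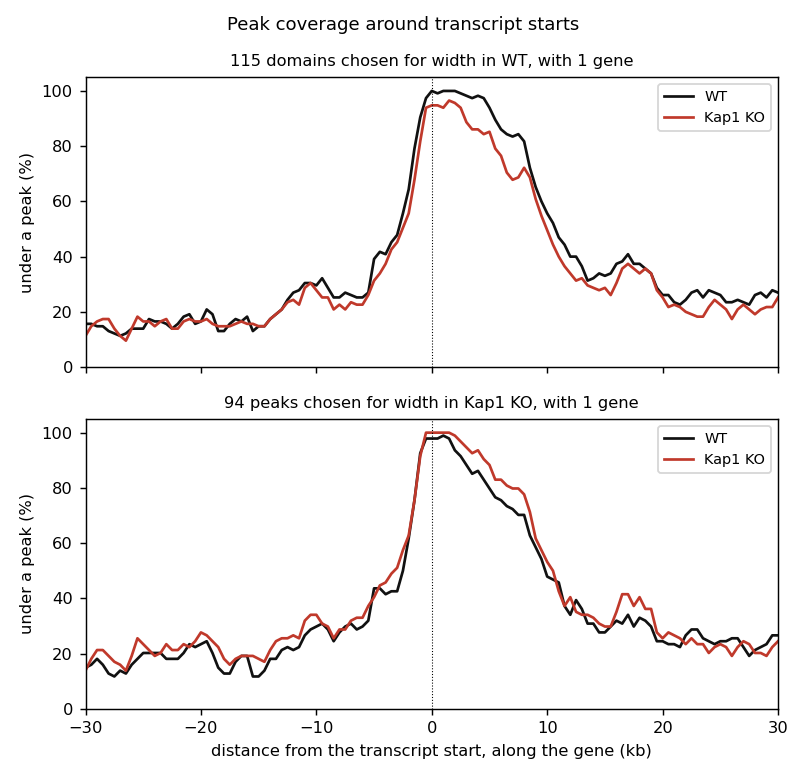
Share of domains (y axis, %) with an H3K27ac peak at each distance from the main transcript start of their gene (x axis, kb, positive in the direction of transcription), in WT and Kap1 KO MEFs, for 115 domains chosen for width in WT (top) and 94 peaks chosen for width in KO (bottom). At 7500 bp downstream coverage is 84.3% in WT and 68.7% in KO in the top panel, and 70.2% and 79.8% in the bottom panel, so each list is ahead where it made the choice.

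Of the 250 domains, 53 lay within 50 kb of another. Examples are 3 domains inside Vmp1, 3 over Bcl2l1, 3 over Zmiz1 and the Malat1 and Neat1 pair. Chromosome 11 held 31 domains, or 14.3 per 1000 shared WT peaks, and chromosome 19 held 16, or 17.6 per 1000. Chromosomes 16 and 18 held 1 each, or 1.23 and 1.36 per 1000.

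Fibroblast genes were then followed through both lists. Of 29 autosomal mesenchymal transcription factor genes, 4 had a start in a domain, and of 49 matrix and fibroblast marker genes, 8 had. Together this was 12 of 78 (15.4%, 8.21% to 25.3%), beside the 0.982% of all genes. Of 20 housekeeping genes, 2 had a start in a domain (10%), a share inside this interval. Among fibroblast genes with a WT peak at a start it was 12 of 69 (17.4%), beside 1.85% of all such genes. The share is thus not particular to fibroblast genes. A further 3, Loxl2, Ltbp1 and Timp2, were touched by a domain outside their starts. All 12 had a start under a KO peak, and 3 of the transcription factors and 5 of the matrix genes had a start in a KO peak of at least 10000 bp.

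The transcription factors in domains were Foxc1 and Foxc2, forkhead factors of mesenchyme, Runx2, the factor of bone formation, and Zeb2, a factor of the epithelial to mesenchymal transition. Foxc1 measured 21234 bp in WT and 21126 bp in KO. Runx2 had 13082 bp and 12444 bp, and Zeb2 11106 bp and 10003 bp. Foxc2 had 13118 bp in WT and was met by 2 KO peaks of 8195 and 3188 bp, a ratio of 0.868. None of the 4 was called shrinking or growing.

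Among the 8 matrix and fibroblast marker genes with a start in a domain, the collagen genes held the lowest ratios. Collagen genes of the list without a start in a domain are not covered by this. The Col1a1 domain, over the gene of the alpha1 chain of type I collagen on chromosome 11 from 94792761 to 94812063, had 19303 bp in WT. It was met by 4 KO peaks of 2703, 5630, 1055 and 1661 bp, which summed to 11049 bp, a ratio of 0.572. The KO peak of 5630 bp covered the start, and the largest gap, of 4186 bp, lay downstream of it. Col6a1, a chain of type VI collagen, had 11684 bp in WT and 4 KO peaks of 2210, 2381, 1908 and 835 bp, a ratio of 0.628. Col1a2, the alpha2 chain of type I collagen, had 11051 bp and 9500 bp in 2 KO peaks, a ratio of 0.860. Col1a1 and Col6a1 were the 2 fibroblast genes in shrinking domains.

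The other matrix and marker genes in domains kept their width more closely. Lmna, encoding lamins A and C, had 18969 bp in WT and 18665 bp in KO. Fbln2, a matrix glycoprotein, had 17249 bp and 19615 bp, a ratio of 1.14. Thbs1, encoding thrombospondin 1, had 13682 bp and 14489 bp. Loxl1, a lysyl oxidase, had 11365 bp and 11263 bp. S100a4, a calcium-binding protein, shared its domain with S100a3, with 11236 bp in WT and 10293 bp in KO.

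**Figure D5:**
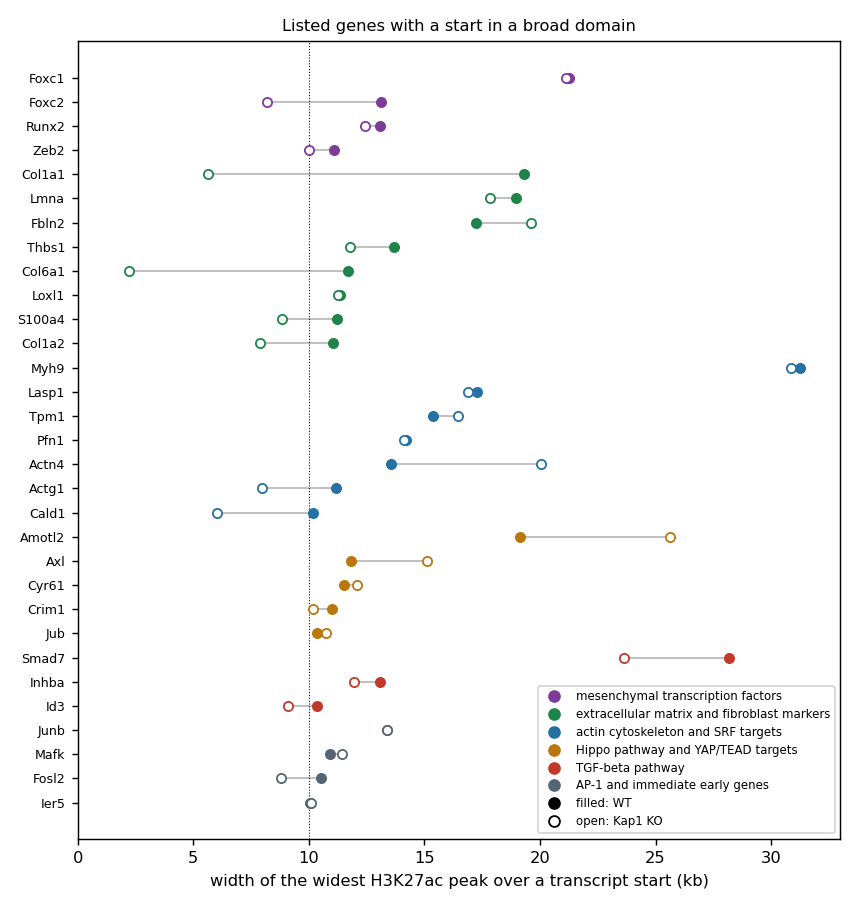
Width in kb (x axis) of the widest H3K27ac peak over a protein-coding transcript start in WT (filled) and Kap1 KO (open) MEFs, for genes of 6 lists with a start in a domain; the dotted line marks 10 kb. Only the peak over a start is drawn, so the split domains of Col1a1 (19303 bp in WT, 5630 bp in KO) and Col6a1 (11684 and 2210 bp) show large steps, whereas Foxc1, Loxl1 and Myh9 do not.

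Other gene lists were counted in the same way. Of 28 autosomal actin cytoskeleton genes, 8 had a start in a domain (28.6%). In order of width these began with Myh9, Lasp1, a LIM and SH3 protein of focal adhesions, with 17290 bp in WT and 16865 bp in KO, Tpm1, a tropomyosin, with 15390 bp and 16465 bp, and Pfn1, the actin monomer binder profilin 1, with 14200 bp and 14103 bp. Of 20 Hippo pathway genes and targets of YAP and TEAD, 5 had one (25%). Amotl2, an angiomotin, had 19128 bp in WT and 25641 bp in KO, and Axl, a receptor kinase, 11829 bp and 15130 bp, both by joining with another WT peak. Cyr61, a matricellular protein, had 11517 bp and 12100 bp, and Crim1, a membrane regulator of BMP signals, 11013 bp and 10198 bp.

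Of 26 TGF-beta pathway genes, 4 had a start in a domain (15.4%), among them Smad7, Inhba, which encodes the activin A subunit, with 13075 bp in WT and 11933 bp in KO, and Id3, an inhibitor of helix-loop-helix factors, with 10346 bp and 9090 bp. Of 29 AP-1 and immediate early genes, 4 had one (13.8%): Junb with 13371 bp and 13358 bp, Mafk with 10929 bp and 11431 bp, Fosl2 with 10508 bp and 8790 bp, and Ier5. Hox genes stood highest, with 17 of 39 (43.6%) in 5 domains, although these genes share domains and 24 of the 39 had a WT peak at a start at all. Of 20 housekeeping genes, 2 had a start in a domain (10%), among them Eef2, the translation elongation factor 2, with 13603 bp in WT and 13181 bp in KO. No gene of the lists for KAP1 machinery, hepatocyte, neuronal, blood, epithelial, endothelial, pluripotency, cartilage and bone or adipocyte markers had one. The skeletal muscle list had Pax3.

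The base content of the domains was close to that of the narrower shared peaks, with 49.0% against 48.3% GC. The ratio of observed to expected CpG was 0.314 against 0.390. Matches were counted on both strands for AP-1 (TGANTCA), TEAD (GGAATG) and the GC box of SP factors (GGGCGG). Domains held 0.389 AP-1, 0.632 TEAD and 0.600 SP matches per kb, and the narrower peaks 0.467, 0.614 and 0.817. Domain bases under KO peaks held 0.400 AP-1, 0.638 TEAD and 0.633 SP matches per kb and a CpG ratio of 0.321. The 365 kb of domain bases without a KO peak held 0.288, 0.581 and 0.304 and a CpG ratio of 0.248, all of them lower. WT peaks chosen for width set the bounds of these bases, and the reverse comparison was not made. No difference between genotypes is therefore read from these values. A match is a description of letters, not a site.

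Promoters of 5 genes are given because their domains differ in what the KO list kept. Foxc1 and Thbs1 kept the domain, Col1a1 and Cxcl12 kept the start under a smaller peak, and the Pax3 start lay under no KO peak. All 5 were thus picked after their values were seen, Foxc1, Col1a1 and Thbs1 from the fibroblast lists and Cxcl12 and Pax3 from outside them. Each is the 250 bases upstream of the start used by most protein-coding transcripts, from mm9, 5′ to 3′, with matches to the 3 motifs in capitals. At least 1 SP match was found in 40.5% of these windows over all 21275 genes and in 53.6% over the 209 domain genes. The shares were 5.88% and 5.26% for AP-1, and 11.4% and 14.4% for TEAD. Of the 21275 genes, 11318 had a WT peak at a start. Shares among these alone were not counted, so nothing is read from the differences.
Foxc1, chr13:31898265-31898514, plus strand: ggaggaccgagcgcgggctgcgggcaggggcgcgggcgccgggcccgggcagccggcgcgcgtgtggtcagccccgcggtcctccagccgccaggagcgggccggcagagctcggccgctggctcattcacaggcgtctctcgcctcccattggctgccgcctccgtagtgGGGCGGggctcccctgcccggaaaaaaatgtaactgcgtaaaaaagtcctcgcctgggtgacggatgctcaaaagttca
Col1a1, chr11:94797288-94797537, plus strand: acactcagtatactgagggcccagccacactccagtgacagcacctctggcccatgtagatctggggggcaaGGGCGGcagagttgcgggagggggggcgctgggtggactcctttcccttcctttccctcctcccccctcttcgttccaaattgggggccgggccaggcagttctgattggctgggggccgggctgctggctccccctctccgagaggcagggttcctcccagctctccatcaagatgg
Cxcl12, chr6:117118303-117118552, plus strand: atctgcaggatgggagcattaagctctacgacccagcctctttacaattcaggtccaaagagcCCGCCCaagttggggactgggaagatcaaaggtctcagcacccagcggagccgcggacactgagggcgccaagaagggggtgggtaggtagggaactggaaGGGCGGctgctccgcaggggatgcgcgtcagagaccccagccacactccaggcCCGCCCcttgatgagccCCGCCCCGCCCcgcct
Pax3, chr1:78193710-78193959, minus strand: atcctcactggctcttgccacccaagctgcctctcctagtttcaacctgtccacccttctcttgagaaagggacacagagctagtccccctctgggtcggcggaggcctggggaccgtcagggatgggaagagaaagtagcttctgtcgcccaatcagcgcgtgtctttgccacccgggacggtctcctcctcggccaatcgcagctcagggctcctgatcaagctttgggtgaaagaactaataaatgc
Thbs1, chr2:117937362-117937611, plus strand: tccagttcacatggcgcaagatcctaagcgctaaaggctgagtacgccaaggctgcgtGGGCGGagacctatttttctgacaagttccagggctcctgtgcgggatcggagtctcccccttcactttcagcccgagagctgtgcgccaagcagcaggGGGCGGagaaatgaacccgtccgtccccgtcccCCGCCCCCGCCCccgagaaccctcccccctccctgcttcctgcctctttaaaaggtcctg
These windows held 1 SP match in Foxc1, 1 in Col1a1, 5 in Cxcl12, of which 2 overlap, and 4 in Thbs1. Pax3 held no match to any of the 3 motifs, which says only that these letters are not in this window.

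Other marks over the domains were few in MEFs. A WT H3K9me3 peak touched 2 of 250 domains (0.8%, 0.0970% to 2.86%), those of Pax3 and Tpm1, and a KO H3K9me3 peak touched none (exact upper bound 1.46%). Of the narrower shared peaks 0.559% had a WT and 0.0703% a KO H3K9me3 peak. Per 10 kb there were 0.00563 WT H3K9me3 peaks in the domains and 0.0241 in the narrower peaks. For KO H3K9me3 peaks these rates were 0 and 0.00301. In Hepa 1.6 cells, a different cell type, KAP1 peaks lay in 96 domains (38.4%, 32.3% to 44.7%), against 15.9% of narrower peaks, but per 10 kb there were 0.422 in the domains and 0.656 in the narrower peaks. SETDB1 peaks of these cells, all of which were also rows of the KAP1 list, lay in 17 domains (6.80%, 4.01% to 10.7%), against 1.13% of narrower peaks, with 0.0619 and 0.0470 per 10 kb. The 17 included the Hoxb, Hoxc4 to Hoxc6, Foxc1, Runx2, Cxcl12, Neat1 and Malat1 domains and 3 domains of histone gene clusters, whose near-identical copies can share reads.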

How the data were processed

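H3K27ac and H3K9me3 peak lists of WT and Kap1 KO MEFs and KAP1 and SETDB1 lists of Hepa 1.6 cells were used, 1 library each. Per the study's methods and the labels, the authors used Bowtie2 (2.2.1) to map reads to mm9 and MACS (1.4), with total input as its control, to call peaks, with a stated score cutoff of 80. The deposited rows hold a chromosome, a start, an end and a score, and the H3K27ac scores start at 50.0, below that cutoff, and all rows were used. Scores were compared between libraries only as the share of at least 3100, since read depth is not in the lists. A called width can depend on depth. MEF input libraries, RNA-seq and rows on X and Y were not analysed here. Width was end minus start. Genes came from GENCODE vM1 on NCBIM37 (mm9). The KO width of a domain was the summed width of all KO peaks sharing 1 bp with it. Named were the 10 widest domains, the 8 lowest and 8 highest ratios, the 5 with most KO peaks, 3 on each side of the threshold, the fibroblast genes, and 4 genes of each other list, and some of these are not reported here. Members and gene lists were chosen with earlier results of these data known. No tests were made. Overlap code was tested on simulated data and checked against bedtools 2.31.1. Python 3.11.15, pandas 2.3.3, scipy 1.17.1, pysam 0.24.0 and matplotlib 3.10.9 were used. Other widths, folds, KO width measures and peak lists were tried as alternatives.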

Additional observations from a re-analysis of the deposited data

Results flagged for a closer look

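H3K9me3 peaks of at least 10000 bp, a part of the MEF data that served only for overlap above, numbered 12 in Kap1 KO MEFs and 0 in WT MEFs, and 6 of the 12 lay on chromosome 10 from 115 to 128 Mb. In that stretch, where all 8 broad H3K27ac domains were wider in KO, the KO list had 1162 H3K9me3 peaks and the WT list 218. Each is 1 library against 1, and the cause was not tested.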

How the results depend on the processing

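With 1 library per genotype nothing measures the spread between replicates, so the calls describe 2 peak lists, and depth, which can affect peak width, is unknown. Of 67 values under other settings, 37 kept within 1.5 times the count or within the interval of the main value, 29 moved and 1 reversed, and the cause was not tested except where given. The reversed value was the median KO to WT ratio of domains taken from the KO list, at 1.02, where 12 shrank, 41 grew and 68 were split. A minimum width of 8000 bp gave 491 domains, with 85 shrinking, 36 growing and 181 split; 15000 bp gave 66, with a median ratio of 0.976, 8 shrinking, 8 growing, 32 split, 69.7% with a start and 5.13% of fibroblast genes. Joining peaks closer than 1000 bp gave another set of 419 domains, with a median ratio of 0.914, 121 shrinking and 153 split. By the widest KO peak alone, the median ratio was 0.878 and 111 shrank, and by the span of the KO peaks 0.977 and 20. Counting only KO bases inside the WT domain left 0 growing, as that measure cannot exceed 1. At folds of 1.1, 1.5 and 2, 94, 20 and 4 shrank, and 26, 8 and 3 grew. Over whole loci, added after seeing the data, 5 grew. Starts of genes of any type lay in 72.4% of domains.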
